A study of Homo sapiens with 12 samples.

Results

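The genes ANKRD1, DKK1 and NUAK1 were followed through 12 RNA-seq libraries of the A375 line, human melanoma cells long kept in culture in which BRAF is mutated and active. They are 3 of the 8579 genes in the table of counts and were taken by name. They were selected on their levels across the 4 groups, which were already known, so those levels and the differences between groups are given here as a description, without a test. The groups were COMBO (SEL201 at 2.5 µM together with OTX015 at 50 nM), OTX015 alone at 50 nM, SEL201 alone at 2.5 µM, and UNTREATED, whose treatment label is DMSO, the drug solvent. All had 72 hours of treatment, and each group held 3 libraries, numbered 1 to 3. SEL201 inhibits the kinases MNK1 and MNK2, and OTX015 inhibits BET bromodomain proteins. All libraries come from 1 cell line, so they describe A375 and no other melanoma.

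Melanoma cells can shift between a melanocytic state, which is driven by the transcription factor MITF, and an undifferentiated state that is linked to invasion. ANKRD1 encodes an ankyrin repeat protein that binds titin in the muscle sarcomere and also enters the nucleus, and its gene is a well-known target of the Hippo pathway coactivators YAP and TAZ, which act through TEAD transcription factors. DKK1 is a secreted antagonist of Wnt signalling that binds the coreceptors LRP5 and LRP6. NUAK1 is a kinase related to AMPK that is activated by LKB1 and phosphorylates a subunit of myosin phosphatase, and it is known for roles in cell adhesion and migration.

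The stretches upstream of the 3 transcription starts are shown because the genes were lower together in all treated groups while belonging to different pathways, so that their letters can be set side by side. Each is the RefSeq GRCh38.p14 sequence of the 250 bases before the annotated start, written 5′ to 3′ on the strand of the gene. Capitals mark matches, on either strand, to the core of the TEAD motif (GGAATG), the AP-1 motif (TGANTCA), the TCF/LEF motif (CTTTGA) or a TATA box (TATAAA). Only these exact letters were searched, so variants such as the tatataag near the start of ANKRD1 are unmarked, and an unmarked stretch may still hold such an element. ANKRD1 lies at chr10:90921088-90921337 on the minus strand, DKK1 at chr10:52314031-52314280 on the plus strand and NUAK1 at chr12:106138955-106139204 on the minus strand.
ANKRD1: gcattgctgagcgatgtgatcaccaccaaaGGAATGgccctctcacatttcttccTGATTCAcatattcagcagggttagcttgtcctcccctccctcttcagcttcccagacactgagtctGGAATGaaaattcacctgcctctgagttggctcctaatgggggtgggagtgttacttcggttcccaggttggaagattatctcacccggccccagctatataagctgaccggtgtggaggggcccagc
DKK1: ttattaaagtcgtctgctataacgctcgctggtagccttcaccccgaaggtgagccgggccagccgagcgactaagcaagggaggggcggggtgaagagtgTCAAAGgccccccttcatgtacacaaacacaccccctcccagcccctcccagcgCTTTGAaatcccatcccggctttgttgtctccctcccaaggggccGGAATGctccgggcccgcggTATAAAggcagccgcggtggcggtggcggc
NUAK1: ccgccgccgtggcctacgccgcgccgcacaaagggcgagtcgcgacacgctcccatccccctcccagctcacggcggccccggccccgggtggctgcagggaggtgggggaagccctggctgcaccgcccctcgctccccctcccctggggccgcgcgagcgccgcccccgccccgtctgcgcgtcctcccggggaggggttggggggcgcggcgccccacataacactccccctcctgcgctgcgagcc
The ANKRD1 stretch held 2 matches to the TEAD letters, 128 and 220 bases before the start counted to their first base, and 1 AP-1 match between them. The DKK1 stretch held 1 TEAD match at 50 bases, 2 TCF/LEF matches, of which the one at 149 bases is on the opposite strand, and a TATA match at 30 bases. The NUAK1 stretch held none of the 4 motifs. No matches overlapped. Of 35116 promoter windows of the same length, 11.9% held the TEAD letters, 6.57% the AP-1 letters, 11.2% the TCF/LEF letters and 10.7% the TATA letters, so single matches are not rare. The GC content was 53.2% in ANKRD1, 62.8% in DKK1 and 79.6% in NUAK1, against a median of 58% and a 90th percentile of 75.2% over all windows. CpG dinucleotides numbered 4 in ANKRD1, 18 in DKK1 and 32 in NUAK1, against a median of 11.

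Levels are given in CPM, the count of a gene scaled to a common library total over the measured genes. Column totals ran from 15146071 to 24111541, and mean counts per gene only from 78.67 to 9158.7, so the totals are not the sequencing depth. Genes with higher or lower mean counts were not analysed here. Libraries with the number 3 stood apart from the others along principal component 2, which held 8.8% of the variance. The raw counts behind the 3 genes were 242 to 1443 for ANKRD1, 3197 to 15486 for DKK1 and 514 to 2312 for NUAK1. Whether libraries of a group are separate cultures is not stated in the labels, and the p-values below then cover only how these libraries vary, possibly for technical reasons. DKK1 overlaps the antisense gene PRKG1-AS1 and NUAK1 overlaps AC011595.1, neither analysed here, and since the strand setting of the counting is not given in the sources used here, reads of such partners cannot be told apart. In RNA from bulk cultures, fewer cells of a kind and less RNA per cell cannot be told apart.

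The state of the cells was checked against markers. Of 12 melanocytic markers, 8 were measured, MITF, MLANA and PMEL among them, with a sum of 719 to 735 CPM in COMBO, 748 to 765 in OTX015, 756 to 782 in SEL201 and 887 to 957 in UNTREATED. The 8 measured markers were therefore present in all 4 groups, and their sum was lower in every treated library than in any UNTREATED library. Some were present only at low levels. Group means were 4.19 to 6.58 CPM for MLANA, 4 to 5.5 for PMEL and 3.21 to 13.1 for MLPH. The listed markers TYR, TYRP1, DCT and SOX10 were not analysed here. GPNMB alone had 213 ± 16.9 CPM in COMBO, 266 ± 22 in OTX015, 300 ± 9.17 in SEL201 and 443 ± 26.9 in UNTREATED (SD, n = 3 each). The other 7 summed to 486 to 529 CPM in COMBO, 477 to 503 in OTX015, 447 to 482 in SEL201 and 455 to 498 in UNTREATED. Each treated range overlapped that of UNTREATED, while COMBO lay above SEL201 without overlap. Among markers of other cell types, 5 of 10 fibroblast genes summed to 86.4 to 93.3 CPM in COMBO, 98.9 to 105 in OTX015, 118 to 136 in SEL201 and 138 to 184 in UNTREATED. These 5 genes did not all go the same way. PDGFRA had 25.2 ± 2.65 CPM in COMBO against 17.9 ± 3.47 in UNTREATED (SD, n = 3 each). COL1A1, DCN, LUM and PDGFRB had lower means in COMBO than in UNTREATED, with LUM at 7.85 ± 1.05 against 45.9 ± 7.84 CPM. The part of the 5 fibroblast genes in the results was not tested. Of the 7 endothelial markers only KDR was measured, at 101 to 157 CPM in COMBO, 70.6 to 121 in OTX015, 66.1 to 109 in SEL201 and 81 to 142 in UNTREATED. Of the 7 immune markers only LYZ was, at 19.5 to 22.6 CPM in COMBO, 21.3 to 24.3 in OTX015, 29.3 to 32.4 in SEL201 and 39.2 to 50.2 in UNTREATED. No measured marker of these cell types was at 0.

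ANKRD1, the ankyrin repeat gene, was lowest with both agents, and of the single agents SEL201 gave the lower level. It had 10.6, 12.5 and 16 CPM in COMBO libraries 1, 2 and 3, and 20.7, 26.9 and 34.1 CPM in OTX015. SEL201 libraries had 14.1, 16 and 23.3 CPM, and UNTREATED libraries 42.2, 59.9 and 61 CPM. Every treated library was below every UNTREATED library. COMBO and SEL201 overlapped, as did OTX015 and SEL201, but COMBO stayed below all OTX015 libraries.

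The means were 13 ± 2.73 CPM in COMBO, 27.2 ± 6.69 in OTX015, 17.8 ± 4.86 in SEL201 and 54.4 ± 10.6 in UNTREATED (SD, n = 3 each). From the lowest up the order was COMBO, SEL201, OTX015 and UNTREATED. COMBO and SEL201, and OTX015 and SEL201, neighbours in this order, had overlapping libraries, with log2 differences of -0.45 (SE 0.23) and 0.63 (SE 0.22) beside a pooled SD between replicates of 0.335. The fitted log2 change against UNTREATED was -2.07 in COMBO (standard error, SE, 0.22), -1 in OTX015 (SE 0.21) and -1.62 in SEL201 (SE 0.22), which leaves 23.8%, 50.2% and 32.5% of the UNTREATED level. Counted from the most negative change, ANKRD1 stood at 1.55% of the ranking of 8579 genes in COMBO, at 4.37% in OTX015 and at 0.256% in SEL201. In COMBO against OTX015, where SEL201 is the added agent, it held place 10 of 8579, with a log2 change of -1.08 (SE 0.22).

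DKK1, the secreted Wnt antagonist, was the most abundant of the 3 genes and reached nearly the same level with OTX015 as with both agents. It had 157, 195 and 275 CPM in COMBO libraries 1, 2 and 3, and 169, 205 and 302 CPM in OTX015. SEL201 libraries had 228, 209 and 376 CPM, and UNTREATED libraries 474, 540 and 768 CPM. The 3 treated groups overlapped one another, and all their libraries were below the lowest UNTREATED library.

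DKK1 averaged 209 ± 60.2 CPM in COMBO, 225 ± 69.1 in OTX015, 271 ± 91.5 in SEL201 and 594 ± 154 in UNTREATED (SD, n = 3 each). In this order, from the lowest up, the libraries of the treated neighbours overlapped. The log2 change against UNTREATED was -1.51 in COMBO (SE 0.27), -1.40 in OTX015 (SE 0.26) and -1.14 in SEL201 (SE 0.26), or 35.1%, 38% and 45.5% of the UNTREATED level. COMBO against OTX015 gave -0.11 (SE 0.26) and COMBO against SEL201 -0.37 (SE 0.26). Without OTX015 replicate 3 the change of COMBO against OTX015 was 0.155, and without COMBO replicate 1 it was 0.0572. Without SEL201 replicate 3 the change of COMBO against SEL201 was -0.0671, and that of OTX015 against SEL201 was 0.0466 in place of -0.26. Those fits drop 1 library of a number and keep the rest, and within numbers 1, 2 and 3 OTX015 differed from SEL201 by -0.43, -0.02 and -0.31.

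NUAK1, the AMPK-related kinase gene, varied least between libraries of a group and was lower with OTX015 than with SEL201. It had 31.5, 36.7 and 34 CPM in COMBO libraries 1, 2 and 3, and 38.7, 46.1 and 34 CPM in OTX015. SEL201 libraries had 53.8, 57.9 and 60 CPM, and UNTREATED libraries 96.4, 95.9 and 106 CPM. COMBO and OTX015 overlapped, while SEL201 stood between them and UNTREATED without overlap on either side.

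NUAK1 averaged 34.1 ± 2.58 CPM in COMBO, 39.6 ± 6.09 in OTX015, 57.2 ± 3.16 in SEL201 and 99.3 ± 5.45 in UNTREATED (SD, n = 3 each). COMBO and OTX015, the 2 lowest, had overlapping libraries, with a log2 difference of -0.22 (SE 0.10) beside a pooled SD between replicates of 0.135. Against UNTREATED the log2 change was -1.54 in COMBO (SE 0.10), -1.32 in OTX015 (SE 0.10) and -0.80 in SEL201 (SE 0.10), or 34.3%, 39.9% and 57.6% of the UNTREATED level. OTX015 against SEL201 gave -0.53 (SE 0.10), where ANKRD1 had 0.63 (SE 0.22), the opposite sign.

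**Figure D1:**
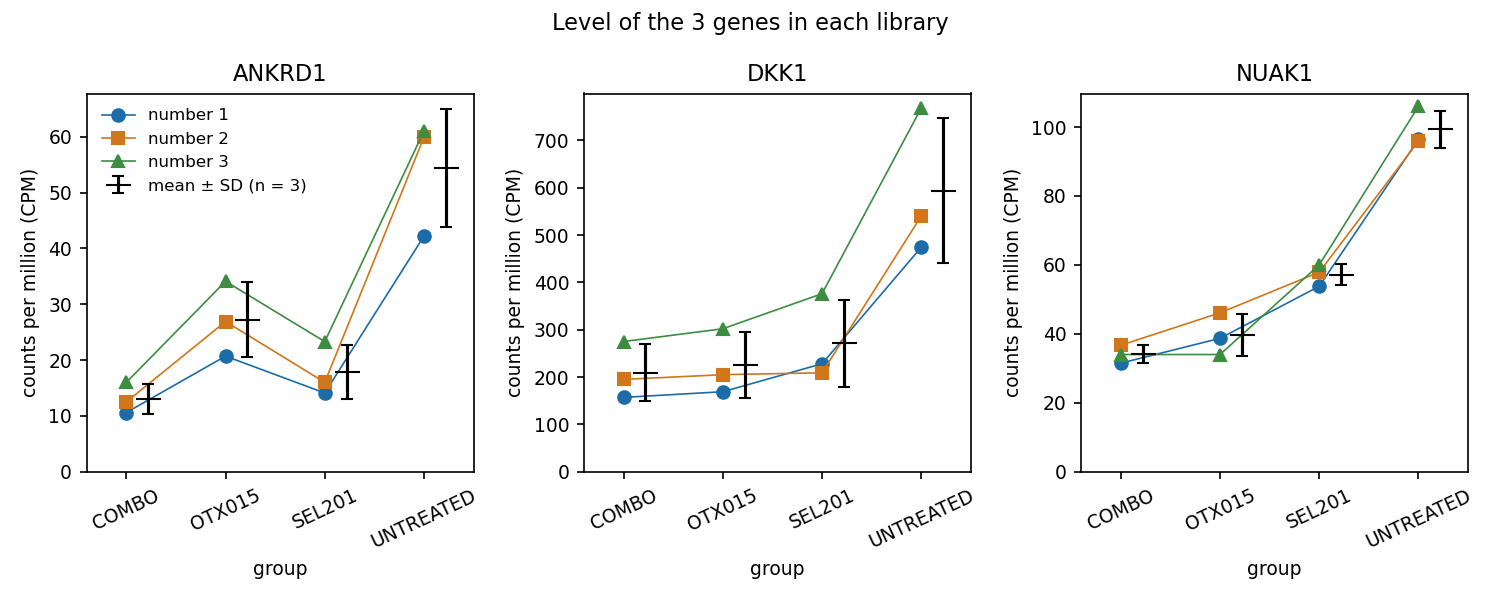
The level of each gene in CPM (axis from 0) is plotted for the libraries of COMBO, OTX015, SEL201 and UNTREATED, with lines joining libraries of the same number and a black bar for the mean and SD of 3 libraries. UNTREATED is the highest group for all 3 genes, ANKRD1 is lower in SEL201 than in OTX015 within each number, and NUAK1 is higher in SEL201 than in OTX015 within each number.

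All 3 genes were lower without overlap in COMBO, OTX015 and SEL201 against UNTREATED. Over all 8579 genes, 32.1% were lower without overlap in COMBO, 28.9% in OTX015 and 18.8% in SEL201, and since the genes were picked for these values nothing is read from the count. These 3 comparisons share the UNTREATED libraries. Of the 3, 1 was lower without overlap in COMBO against OTX015, ANKRD1 (background 12.8% of all genes). NUAK1 was the 1 lower without overlap in COMBO against SEL201 (background 24.9%) and in OTX015 against SEL201 (background 20.3%). 

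Per kilobase of exon in the GENCODE annotation, with lengths of 1979 bases for ANKRD1, 2206 for DKK1 and 7008 for NUAK1, DKK1 stood highest. Its level per kilobase was 94.8 CPM in COMBO, 102 in OTX015, 123 in SEL201 and 269 in UNTREATED. ANKRD1 had 6.59 CPM per kilobase in COMBO, 13.8 in OTX015, 8.99 in SEL201 and 27.5 in UNTREATED. NUAK1 had 4.86 in COMBO, 5.65 in OTX015, 8.16 in SEL201 and 14.2 in UNTREATED on the same scale. Within a library, the count of DKK1 divided by that of ANKRD1 does not depend on scaling. This ratio was 14.8 to 17.2 in COMBO, 7.63 to 8.87 in OTX015, 13.1 to 16.2 in SEL201 and 9.03 to 12.6 in UNTREATED, so OTX015 stood below and COMBO and SEL201 above UNTREATED without overlap. The ratio of NUAK1 to ANKRD1 counts was 2.12 to 2.96 in COMBO, 0.999 to 1.87 in OTX015, 2.58 to 3.82 in SEL201 and 1.6 to 2.28 in UNTREATED, with no overlap between OTX015 and SEL201. The ratio of DKK1 to NUAK1 counts was 4.99 to 8.09 in COMBO and 4.36 to 8.88 in OTX015. In SEL201 it was 3.61 to 6.27 and in UNTREATED 4.92 to 7.28, so all groups overlapped. Since the genes were selected on their levels, nothing is read from which ratios separate the groups.

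Libraries with the same number moved together for ANKRD1 and DKK1. In all 4 groups the number 3 library was the highest for both genes, by 0.19 to 0.42 above the group mean on the log2 scale for ANKRD1 and by 0.40 to 0.52 for DKK1. NUAK1 did not share this, with number 3 between -0.21 and 0.09 of its group means. Differences taken within a number were therefore tighter than the spread of the groups for ANKRD1 and DKK1. For DKK1 the log2 difference of COMBO from UNTREATED was -1.59 within number 1, -1.47 within number 2 and -1.48 within number 3, and with the replicate number as a block the SE was 0.05 in place of 0.27. Without the 4 number 3 libraries, the log2 change against UNTREATED was -2.14 in COMBO, -1.10 in OTX015 and -1.77 in SEL201 for ANKRD1. For DKK1 it was -1.53 in COMBO, -1.44 in OTX015 and -1.22 in SEL201. For NUAK1 it was -1.50 in COMBO, -1.18 in OTX015 and -0.785 in SEL201.

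Differences within numbers also order groups that overlap. ANKRD1 was lower in COMBO than in SEL201 within each number, by log2 differences of -0.40, -0.36 and -0.54, and higher in OTX015 than in SEL201 within each, by 0.56, 0.75 and 0.55. With the replicate block the SEs of these 2 ANKRD1 comparisons were 0.10 in place of 0.23 and 0.09 in place of 0.22. DKK1 in COMBO differed from OTX015 by -0.10, -0.07 and -0.14 within numbers 1, 2 and 3. For DKK1 the block gave an SE of 0.05 in place of 0.26 in COMBO against OTX015 and in COMBO against SEL201. NUAK1 in COMBO differed from OTX015 by -0.30, -0.33 and 0.00. Over all genes, 34.8% were lower in COMBO than in SEL201 within every number, 25.9% lower in COMBO than in OTX015 and 30.8% higher in OTX015 than in SEL201, which is the background for these patterns.

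The levels with both agents were less low than both single-agent changes added up. The single-agent log2 changes sum to -2.62 for ANKRD1, where COMBO had -2.07, and to -2.53 for DKK1, where COMBO had -1.51. For NUAK1 they sum to -2.12, and COMBO had -1.54. The difference from the sum, the interaction, was 0.54 for ANKRD1 (SE 0.31), 1.02 for DKK1 (SE 0.37) and 0.58 for NUAK1 (SE 0.14). With the replicate block these SEs were 0.13 for ANKRD1, 0.07 for DKK1 and 0.11 for NUAK1. Within numbers 1, 2 and 3 the interaction was 0.62, 0.80 and 0.30 for ANKRD1, and 0.96, 1.30 and 0.89 for DKK1. For NUAK1 it was 0.55, 0.40 and 0.81, so it was above 0 in each number for all 3 genes. Over all genes, 18.3% were above 0 within all 3 numbers, and since the interaction uses the UNTREATED libraries on which the genes were selected, nothing is read from the pattern. The largest of these values belonged to DKK1, whose level in COMBO was close to that in OTX015.

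**Figure D2:**
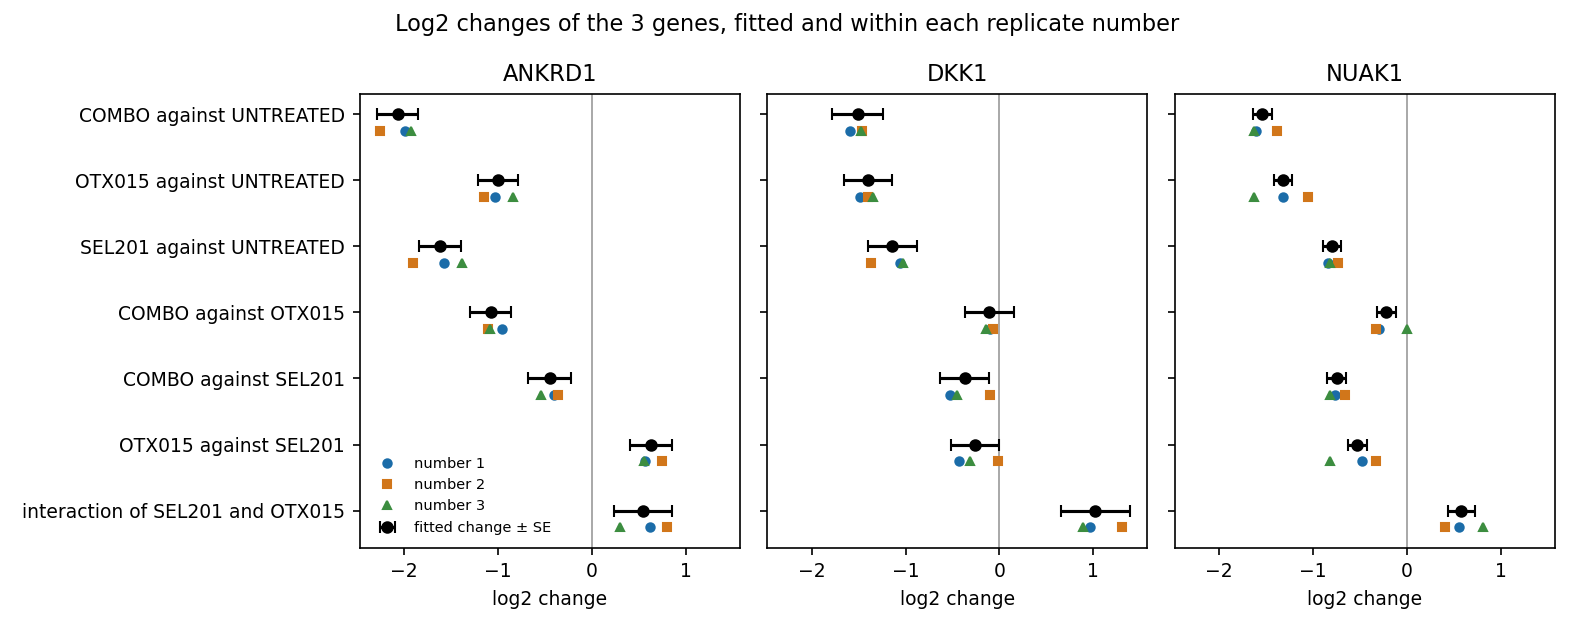
Log2 changes (horizontal axis) of the 3 genes are plotted for 7 comparisons. A black point and bar give the fitted change and its SE, without the replicate block. Coloured points give the difference within replicate numbers 1, 2 and 3. The changes against UNTREATED lie below 0 for all 3 genes, the interaction lies above 0, and OTX015 against SEL201 is 0.63 for ANKRD1 and -0.53 for NUAK1.

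Genes with the most similar course over the 12 libraries were found by the root mean square (RMS) difference of log2 CPM after each gene's own mean was removed. Nearest to ANKRD1 were CPA4, a carboxypeptidase gene (RMS difference 0.262), and TGM2, the transglutaminase gene that the series title names (0.293). SPP1, which encodes osteopontin, followed at 0.336, then the transmembrane collagen gene COL13A1 at 0.339 and the growth factor gene NRG1 at 0.351. CPA4 shares the lower level in SEL201 than in OTX015, with means of 49.6 CPM in COMBO, 79.5 in OTX015, 51.3 in SEL201 and 135 in UNTREATED.

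DKK1 had as nearest genes the urea transporter gene SLC14A1 at an RMS difference of 0.206, the noncoding RNA gene LINP1 at 0.241, NRG1 at 0.241, the transporter gene ABCA13 at 0.244 and TMEM171 at 0.246. Genes came closer to NUAK1: FAM167A at 0.105, the integrin subunit gene ITGB2 at 0.106, the transcobalamin gene TCN2 at 0.108, the lymphatic growth factor gene VEGFC at 0.124 and the matrix gene ECM1 at 0.125. FAM167A, the closest, averaged 22.5 CPM in COMBO, 27.9 in OTX015, 42.3 in SEL201 and 66 in UNTREATED. The 3 genes were not each other's nearest. Among 7529 genes, DKK1 held place 13 from ANKRD1 and NUAK1 place 130, while from NUAK1 the places were 705 for DKK1 and 2006 for ANKRD1. With Pearson's r over the 12 libraries as the measure, 2 of the 5 genes nearest to ANKRD1, 1 of those nearest to DKK1 and 3 of those nearest to NUAK1 were named again.

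**Figure D3:**
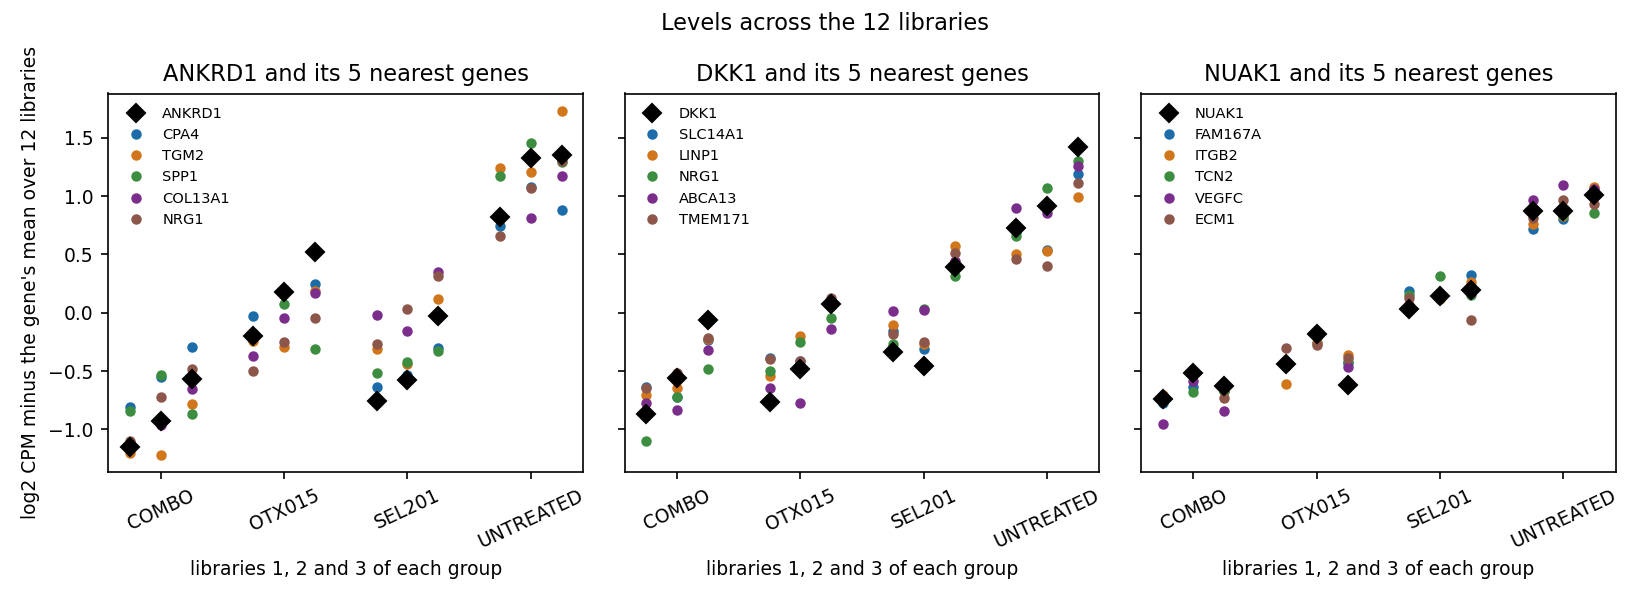
Log2 CPM minus the mean of each gene over 12 libraries (vertical axis) is plotted for ANKRD1, DKK1 and NUAK1 (black diamonds) and the 5 genes nearest to each (coloured points), by library within COMBO, OTX015, SEL201 and UNTREATED. The points lie closest together for NUAK1, where the RMS differences are 0.105 to 0.125.

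Other genes of the invasive state fell more often than they rose. Of 54 such genes listed besides the 3, 24 were measured. This list, like the others below, was chosen with earlier results of these data known. The comparisons with UNTREATED share its libraries, so they are not separate evidence. COMBO against UNTREATED lowered 15 of the 24 (62.5%, against 29.6% of all genes) and raised 2 (8.33%, against 28.3%), by edgeR's quasi-likelihood test with Benjamini-Hochberg adjustment over all genes. FST, which encodes the activin antagonist follistatin, fell to 17 ± 2.95 CPM in COMBO, against 224 ± 32 in UNTREATED (log2 change -3.71, SE 0.14, edgeR adjusted p = 1.1e-10). S100A2, a calcium-binding protein gene, fell by 2.58 on the log2 scale, the fibulin gene EFEMP1 by 2.19 and the Wnt receptor gene FZD2 by 0.98. CRISPLD2 and HS3ST3A1 rose, and for HS3ST3A1 the call was lost without UNTREATED replicate 3 or COMBO replicate 2, which leaves 1 raised gene. With the replicate block the edgeR adjusted p of HS3ST3A1 was 8.1e-08. CRISPLD2 and HS3ST3A1 were named after their values were seen. The median log2 change of the list was -0.35, against 0 over all genes.

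OTX015 against UNTREATED lowered 16 of the 24 genes (66.7%, against 24.7% of all genes) and raised 2 (8.33%, against 23.3%). FST had a log2 change of -3.13 and S100A2 of -2.09, both past the test. SEL201 against UNTREATED lowered 11 (45.8%, against 11.1% of all genes) and raised 1 (4.17%, against 10.1%), with log2 changes of -1.67 for FST and -1.05 for S100A2. The number lowered by SEL201 was 7 without UNTREATED replicate 1 or without SEL201 replicate 1. With the replicate block, SEL201 lowered 15 of the 24 genes and raised 1. Over all genes it then lowered 1639 (19.1%) and raised 1541 (18%), against 953 and 867 without the block. NGFR, the neural crest receptor gene, had log2 changes of -0.73 in COMBO, -0.65 in OTX015 and -1.04 in SEL201. It was named after its values were seen, and its COMBO call was lost without UNTREATED replicate 3 or COMBO replicate 1 (edgeR adjusted p = 0.082 at most over the leave-out fits). Its OTX015 call was lost without UNTREATED replicate 3 or OTX015 replicate 1 or 2 (edgeR adjusted p = 0.17 at most). With the replicate block the edgeR adjusted p of NGFR was 3.8e-08 in COMBO and 4e-07 in OTX015.

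Melanocytic genes showed both directions. COMBO against UNTREATED raised 6 of 18 measured genes (33.3%, against 28.3% of all genes) and lowered 5 (27.8%, against 29.6%). The melanosome genes GPNMB and MLPH fell by 1.06 and 2.02 on the log2 scale, while S100B rose by 0.94 and the ceramidase gene ASAH1 by 0.42.

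Targets of YAP and TEAD, the group to which ANKRD1 belongs, were lowered in part. Of 21 listed targets besides ANKRD1, 12 were measured. COMBO against UNTREATED lowered 6 (50%, against 29.6% of all genes) and raised 1 (8.33%, against 28.3%). With the replicate block COMBO lowered 8 and raised 2 of the 12, where 34.2% of all genes were lowered and 33.5% raised. The transcription factor gene FOXF2 fell by 1.42 on the log2 scale, RBMS3 by 1.07, LATS2, which encodes a Hippo kinase, by 0.62 and FJX1 by 0.50. CYR61, which is also on the invasive-state list, and CTGF, matricellular genes often read as YAP targets, had log2 changes of -0.82 (SE 0.20, edgeR adjusted p = 0.0029) and -0.14 (adjusted p = 0.52) in COMBO. These 2 were named after their values were seen. With the replicate block CTGF passed in COMBO (edgeR adjusted p = 0.0026) and in SEL201, where its log2 change was -0.37 (edgeR adjusted p = 0.16, and 1.9e-08 with the block). OTX015 lowered 6 of the 12 targets (50%, against 24.7% of all genes) and raised 1 (8.33%, against 23.3%), CCDC80, named after its values were seen. The raised number was 2 without UNTREATED replicate 3, OTX015 replicate 2, COMBO replicate 2 or COMBO replicate 3. SEL201 lowered 3 of the 12 (25%, against 11.1% of all genes), or 7 with the replicate block, where 19.1% of all genes were lowered. It raised 0 by edgeR (against 10.1% of all genes), with 0 higher at an unadjusted p under 0.05 and 0 by DESeq2. Among the 3 lowered, the call of FJX1 was lost without UNTREATED replicate 2 or 3 or SEL201 replicate 1 or 2. With the replicate block the edgeR adjusted p of FJX1 in SEL201 was 1.5e-05. The median log2 change of the targets was -0.31 in COMBO, -0.23 in OTX015 and -0.23 in SEL201.

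**Figure D4:**
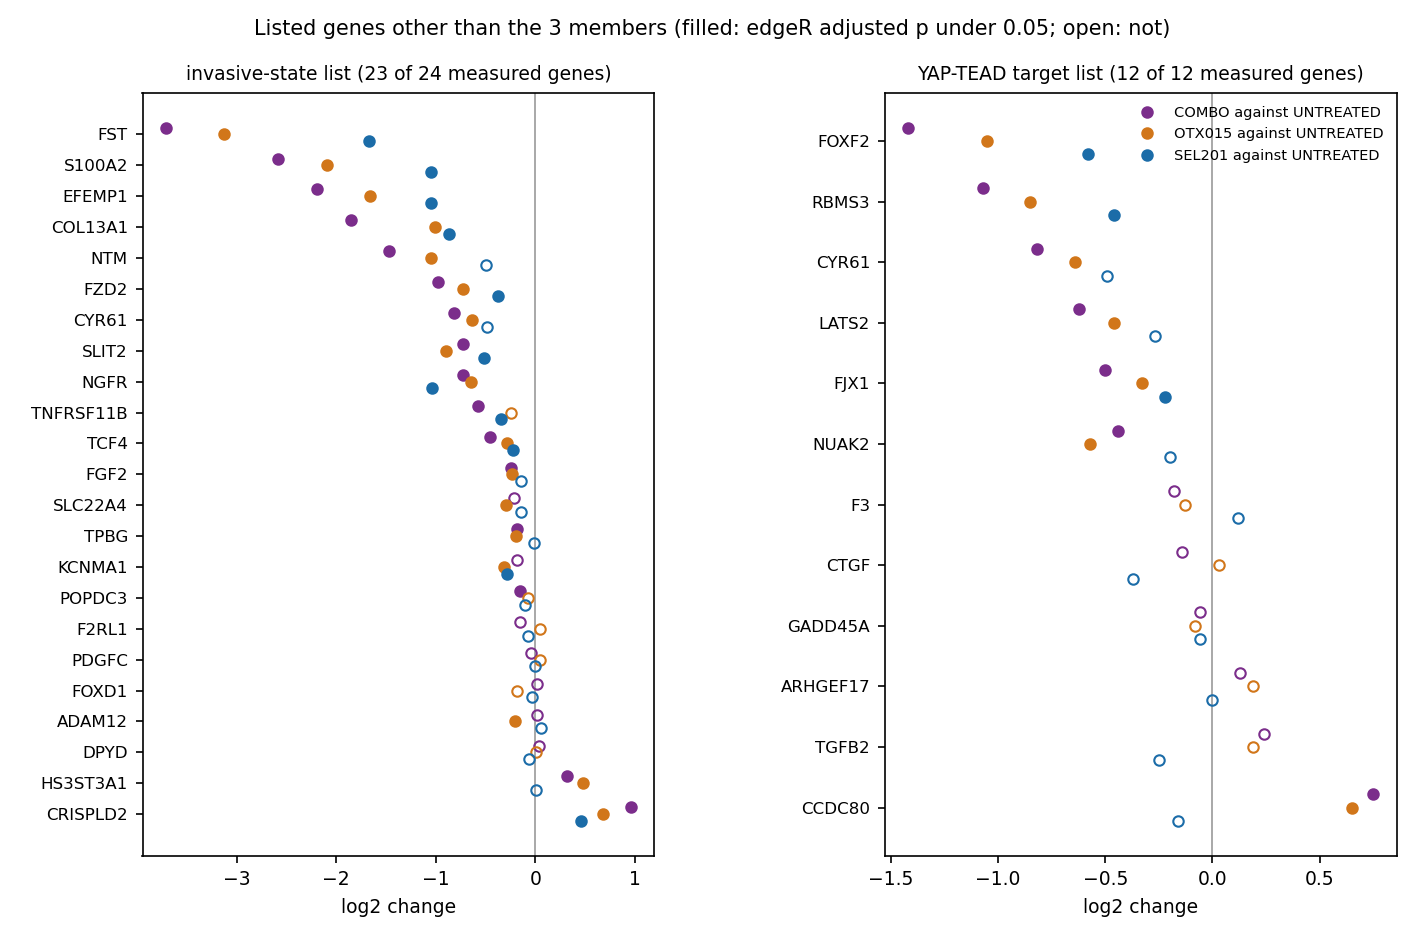
Log2 changes against UNTREATED (horizontal axis) of 23 of the 24 other invasive-state genes and the 12 other YAP-TEAD targets are plotted for COMBO, OTX015 and SEL201, filled where the edgeR adjusted p is under 0.05. FST reaches -3.71 in COMBO, and the CTGF points are unfilled in all 3 comparisons, which are plotted without the replicate block.

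Hippo pathway components held 10 measured genes of 28. COMBO lowered 4 (40%, against 29.6% of all genes) and raised 3 (30%, against 28.3%). TEAD2 fell by 1.83 on the log2 scale, with an SE of 0.15 and an adjusted p of 1.1e-07 in edgeR. TEAD3 fell by 0.73 and the upstream scaffold gene WWC1 fell by 0.51, while the kinase gene TAOK3 rose by 0.28. TEAD2 and TEAD3 encode DNA-binding partners of YAP and TAZ. YAP1, WWTR1, TEAD1 and TEAD4 were not analysed here.

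Wnt receptor and antagonist genes around DKK1 went both ways. COMBO raised 7 (36.8%, against 28.3% of all genes) and lowered 6 (31.6%, against 29.6%) of 19 measured genes. The ligand genes WNT10B and WNT3 had log2 changes of -1 and -0.90 (edgeR adjusted p = 9.1e-09 and 1.1e-06), FZD2 had -0.98, and LGR4, a receptor for R-spondins, rose by 0.44. KREMEN1, which encodes a receptor of DKK1, fell by 0.34 on the log2 scale, with an adjusted p of 0.022 in edgeR, a call lost without UNTREATED replicate 1 or 2 or COMBO replicate 2. With the replicate block its edgeR adjusted p was 0.00095. DKK3, the other DKK gene measured, had 0.31 (adjusted p of 0.34 in edgeR and 6.8e-05 once blocked by replicate number). LRP5 and LRP6 were not analysed here. Of 10 Wnt signal and target genes, COMBO raised 4 and lowered 4 (40% each, against 28.3% and 29.6% of all genes), with PYGO1 at -0.53, TLE2 at -1.39, and the feedback gene NKD1 at 0.52 and TCF7L1 at 0.56, and the lowered number was 2 without COMBO replicate 2.

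Relatives and partners of NUAK1 went both ways. COMBO raised 4 (33.3%, against 28.3% of all genes) and lowered 3 (25%, against 29.6%) of 12 measured genes. The kinase genes BRSK1 and BRSK2 fell by 0.76 and 0.48 on the log2 scale, while MARK4 rose by 0.31 and PPP1R12B, which encodes a myosin phosphatase subunit, by 0.30. NUAK2, the closest relative of NUAK1, fell by 0.44 in COMBO (SE 0.11, edgeR adjusted p = 0.0038). Of 13 other genes listed for ANKRD1, covering ankyrin repeat genes and muscle proteins, 4 were measured. MYPN, which encodes myopalladin, a sarcomere protein that binds ANKRD1, fell by 2.51 in COMBO (edgeR adjusted p = 4.4e-07) and the LIM domain gene FHL1 by 0.44. ANKRD37 rose by 0.29 (edgeR adjusted p = 0.033), a call lost without UNTREATED replicate 1 or 2 or COMBO replicate 1 or 3 (edgeR adjusted p = 0.14 at most), or without the number 3 libraries. FHL2 had 0.07 (edgeR adjusted p = 0.42).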

How the data were processed

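RNA was sequenced from A375 cells in 4 groups of 3 libraries. The authors deposited whole-number read counts per gene, not normalized. Per the submitters' processing notes, the tools were STAR 2.5.4b, featureCounts, Trimmomatic, SAMtools 1.9, FastQC and DESeq2, with the build hg19; the sources used here give neither their roles nor the annotation. The table holds 8579 genes, and CPM are relative to these genes.

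Counts were fitted in R 4.3.3 with edgeR 4.0.16 (TMM, a filterByExpr filter that kept all 8579 genes, quasi-likelihood test on the group means of all 12 libraries, Benjamini-Hochberg adjustment over all genes, threshold 0.05). SEs come from the size of the log2 change over the root of its F value. The fit of COMBO against UNTREATED was run on simulated counts. Those counts had no effect of the replicate number, so the run does not cover the pairing or the replicate block. Log2 CPM used a prior count of 2.

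ANKRD1, DKK1 and NUAK1 and all gene lists were chosen with earlier results of these data known. The genes named were the 5 nearest to each of the 3, up to 4 per list with the lowest p in COMBO against UNTREATED, and, where measured, YAP1, WWTR1, the TEAD genes, LRP5, LRP6, KREMEN1, STK11, NUAK2 and the other DKK genes, whatever their p; others are said to be named after their values were seen. Libraries sharing a number deviated together, with correlations of deviations from the group means of 0.27 to 0.58 in 18 pairs, against -0.47 to 0.20 in 36 other pairs, so the numbers were taken to pair the libraries, a pairing that the data show and no label states. Alternatives were the replicate block, other scalings and filters, DESeq2 1.42.0, only the groups compared, leaving out each library and, chosen after seeing the data, leaving out the 4 number 3 libraries. The summed level of the invasive-state markers, and the values of 1 gene of the invasive-state list, are not reported here; that gene stays in the list's counts and medians.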

Additional observations from a re-analysis of the deposited data

Results flagged for a closer look

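FST, which encodes follistatin, differed between the effect of SEL201 in the presence of OTX015 and its effect alone. The interaction on the log2 scale was 1.1 (SE 0.19, edgeR adjusted p = 0.03). FST averaged 17 ± 2.95 CPM in COMBO, 25.6 ± 1.34 in OTX015, 70.2 ± 9.55 in SEL201 and 224 ± 32 in UNTREATED (SD, n = 3 each). Leaving out 1 library gave 0.989 to 1.22, with edgeR adjusted p from 0.012 to 0.094, and the call was lost without UNTREATED replicate 1 or 2, SEL201 replicate 1 or 2, any OTX015 replicate, or COMBO replicate 1 or 2. With the replicate block the edgeR adjusted p was 7.5e-09.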

How the results depend on the processing

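Of 417 recomputed log2 changes of ANKRD1, DKK1 and NUAK1, 416 moved by less than the spread between replicates. The exception was NUAK1 in OTX015 against UNTREATED, at -1.18 without the 4 number 3 libraries. Leaving out 1 of 3 libraries can hardly move a group mean by that spread, and many such fits touch neither group compared. The 416 is therefore not read as stability. Some DKK1 differences between treated groups turned sign within that spread. COMBO against OTX015 was 0.155 without OTX015 replicate 3 and 0.0572 without COMBO replicate 1. OTX015 against SEL201 was 0.0466 without SEL201 replicate 3. Of 560 recomputed counts of called genes, 543 stayed within 1.5 times. With the replicate block, SEL201 against UNTREATED lowered 1639 and raised 1541 of all genes and lowered 7 YAP-TEAD targets, and the raised targets numbered 2 in OTX015 and 2 in COMBO; the block moved no other recomputed count of genes against UNTREATED, over all genes or in these lists, by over 1.5 times. Raised targets in OTX015 also numbered 2 with column totals only, with DESeq2 and with only the groups compared. Leaving out 1 library gave 7 to 11 invasive-state genes lowered by SEL201, 1 to 2 raised by COMBO, 1 to 2 targets raised by OTX015, and 2 to 4 Wnt signal and target genes lowered by COMBO. The cause of these shifts was not tested. Genes outside the deposited range of mean counts limit every list to its measured part.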

Other observations

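The measured genes nearest to the 3 on their chromosomes, in RefSeq order and chosen after values were seen, went different ways. Beside DKK1 on chromosome 10, the noncoding gene LINC01468, with 2 genes between, fell in COMBO to 1.82 ± 0.943 CPM, in OTX015 to 3.62 ± 1.18 and in SEL201 to 4.72 ± 0.792, against 16 ± 4.04 in UNTREATED (SD, n = 3 each). Its log2 change was -3.20 in COMBO (SE 0.31, edgeR adjusted p = 8.7e-07), -2.14 in OTX015 and -1.77 in SEL201. On the other side PRKG1, a cGMP-dependent kinase gene with 6 genes between, fell by 0.55 in COMBO (edgeR adjusted p = 0.0026). The measured genes nearest to ANKRD1 lay further off, PANK1 with 17 genes between and PCGF5 with 10. PANK1 had 0.07 in COMBO (edgeR adjusted p = 0.46) and PCGF5 0.10 (edgeR adjusted p = 0.053). For NUAK1 on chromosome 12, they were APPL2, with 12 genes between, and TCP11L2, with 5. In COMBO, APPL2 rose by 0.14 (edgeR adjusted p = 0.017) and TCP11L2 fell by 0.45 (edgeR adjusted p = 0.033).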
